A study of Mus musculus with 9 samples.

Results

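The Hoxa genes examined here were Hoxa2, Hoxa3, Hoxa4, Hoxa5, Hoxa6, Hoxa7, Hoxa9, Hoxa10 and Hoxa11, chosen by gene name, 9 genes of 55536 in the expression table. They lie head to tail on the minus strand of chromosome 6, within the HoxA cluster at chr6:52155590-52260880 of GRCm38. The libraries came from a mouse model of acute myeloid leukemia (AML) driven by MLL-AF9, a fusion of the histone methyltransferase MLL with AF9. c-kit+ bone marrow cells of wild-type (WT) or IRF7-/- mice had been infected with a retrovirus that carried MLL-AF9 and GFP, and IRF7 is a transcription factor of the interferon response. The GFP+ leukemia cells were given to C57BL/6J mice aged 6 to 8 weeks, 1000000 cells per mouse, with no irradiation, so the recipients kept their own blood cells. At day 18, leukemia cells were sorted from bone marrow by surface c-kit, the receptor of stem cell factor. The 3 groups, with 3 libraries each, were AML-WT-c-kit- (cells of wild-type leukemia sorted as c-kit-), AML-WT-c-kit+ (wild-type leukemia sorted as c-kit+) and AML-IRF7-/--c-kit+ (leukemia of IRF7-/- origin sorted as c-kit+), named below as WT c-kit-, WT c-kit+ and the libraries labelled IRF7-/-. All 3 groups carried MLL-AF9 and GFP, whose retroviral promoter is active in many cell types. In the IRF7-/- mice a selection cassette replaced an early part of Irf7 in every cell. The labels give no source mouse for a library, so the p-values measure the spread between these libraries, which may be technical.

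HOXA proteins are transcription factors that bind DNA through a homeodomain. In blood, MLL keeps the HoxA cluster active in stem and progenitor cells, Polycomb complexes silence it, and its expression declines as myeloid cells mature. MLL fusions hold the cluster open, and Hoxa9 with its partner Meis1 is known for its part in leukemias of this kind.

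Values were TPM, a transcript abundance unit; they are scaled for transcript length and sum to a near-constant total, so that each gene is measured as a part of its library. The number of reads behind a value is unknown. Kit, the gene of the sorting marker, was at 0.52, 1.19 and 3.03 TPM in the WT c-kit- libraries, between 50.69 and 58.5 TPM in WT c-kit+ and between 70.26 and 85.68 TPM in the libraries labelled IRF7-/-. Irf7 went against its label in the comparison with WT c-kit+, though not in that with WT c-kit-. It was between 22.28 and 32.33 TPM in WT c-kit-, between 3.36 and 5.31 TPM in WT c-kit+ and between 5.97 and 12.81 TPM in the libraries labelled IRF7-/-. A gene-level value cannot show which exons were read, so it does not check the deletion, and every direction given below for that group rests on its label. The paper reports that IRF7 was checked in its leukemia models by qRT-PCR and Western blot. A list of 12 granulocyte and monocyte maturation genes summed to between 7419 and 33086 TPM in WT c-kit-, between 58532 and 114036 TPM in WT c-kit+ and between 2010 and 2945 TPM in the libraries labelled IRF7-/-. S100a9, S100a8, Ngp and Camp made up most of the sum in every library. In WT c-kit-, replicate 3 had the highest sum and the highest Kit. None of the 12 was at 0 in any library, and the 10 most abundant genes took between 13.1% and 17.3% of each WT c-kit+ library against at most 10.3% elsewhere. Of the 12, 5 were called higher and 3 lower in WT c-kit+ than in WT c-kit-, by the test described below. Over all 13261 genes tested, 641 were called higher and 1275 lower. The 5 were Camp, Ngp, S100a8, S100a9 and Cd177, and the 3 were Csf1r, Cd14 and Mmp8. Means of these 3 were 398.8, 167 and 74.6 TPM in WT c-kit- against 50.9, 65.4 and 4.68 TPM in WT c-kit+. In the libraries labelled IRF7-/-, 10 were called lower than in WT c-kit+, where 714 of all 13238 genes tested were. Against WT c-kit- 10 were also called lower, though not all the same genes, where 1603 of all 13510 genes tested were. These maturation genes moved with the groups in every comparison below, and their part in the Hoxa values was not tested. B cell, T cell and erythroid markers summed to at most 38.1, 5.54 and 18.1 TPM. The B cell sum was nearly all Cd79b, with Ms4a1 at no more than 0.22 TPM. Markers of stroma and endothelium summed to between 17.0 and 59.8 TPM, mostly Lepr, with Col1a1 at no more than 1.29 TPM and Cdh5 at no more than 0.24 TPM.

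The sequences that bear on these genes are shown first. The cluster also encodes a microRNA, miR-196b, at chr6:52230129-52230150 on the minus strand (GRCm38.p6), within the Hoxa9 gene. MicroRNAs pair through their seed, bases 2 to 8, with messenger RNAs and lower their level or translation. The mature sequence from RefSeq is printed with the seed in capitals, because its match lies in the 3′ UTRs of several Hoxa genes.
mmu-miR-196b-5p: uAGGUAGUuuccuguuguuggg
The reverse complement of the seed occurred 4 times in the 3′ UTR of Hoxa7, at bases 310, 347, 479 and 500 after the coding sequence. It occurred 1 time each in Hoxa4, Hoxa5 and Hoxa9 and was absent from the other 5 members. Over all 20848 genes with an annotated 3′ UTR of at least 30 bases, 6.15% held it. The sites are printed with the seed match in capitals.
Hoxa7, base 310: cgcaggcacagccaaaatACTACCTa
Hoxa7, base 347: tttgagaggcactcccaaACTACCTa
Hoxa7, base 479: ctgcaaaccatgatcaatACTACCTa
Hoxa7, base 500: acctactactagccctaaACTACCTa
Hoxa4, base 269: agaaagcactggccatcgACTACCTt
Hoxa5, base 456: aaagatatttttattcaaACTACCTa
Hoxa9, base 337: taagcaaaaggaaagaaaACTACCTt
A match of letters is a description and not evidence of pairing. The Mir196b hairpin was listed at 0 TPM in all 9 libraries, a level that says nothing of the mature miRNA, which is too short for such libraries.

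RefSeq promoters (250 bases before to 50 after a start) were matched for 8 of the 9 genes, 9 promoters in all, with none for Hoxa4. Those of Hoxa6, Hoxa9 and the downstream start of Hoxa10 are printed as examples from genes that differed between groups in the tests below. Hoxa3 and Hoxa7 also differed in a comparison, and theirs are not printed. The other Hoxa10 promoter, which held no match to the searched motifs, is not printed either. Each printed promoter is on the minus strand of GRCm38.p6, 5′ to 3′, with matches to the searched motifs in capitals.
Hoxa6, chr6:52208623-52208922: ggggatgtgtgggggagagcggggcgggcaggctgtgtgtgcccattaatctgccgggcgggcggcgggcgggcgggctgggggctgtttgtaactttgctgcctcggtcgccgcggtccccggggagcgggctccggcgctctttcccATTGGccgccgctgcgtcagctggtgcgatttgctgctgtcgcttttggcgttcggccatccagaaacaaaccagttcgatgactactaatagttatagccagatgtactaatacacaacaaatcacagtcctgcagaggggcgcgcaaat
Hoxa9, chr6:52227321-52227620: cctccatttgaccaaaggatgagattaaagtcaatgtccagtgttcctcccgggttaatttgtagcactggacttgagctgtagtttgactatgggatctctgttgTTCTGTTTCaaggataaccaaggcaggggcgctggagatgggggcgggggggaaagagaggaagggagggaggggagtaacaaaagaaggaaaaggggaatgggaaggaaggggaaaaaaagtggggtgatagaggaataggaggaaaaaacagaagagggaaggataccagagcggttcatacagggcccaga
Hoxa10 downstream start, chr6:52234890-52235189: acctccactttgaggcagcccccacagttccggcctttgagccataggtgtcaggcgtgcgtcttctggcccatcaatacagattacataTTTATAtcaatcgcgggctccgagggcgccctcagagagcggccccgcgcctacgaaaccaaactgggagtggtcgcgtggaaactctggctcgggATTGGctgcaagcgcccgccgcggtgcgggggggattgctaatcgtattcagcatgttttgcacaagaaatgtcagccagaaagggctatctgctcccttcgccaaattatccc
The motifs searched on both strands were the CCAAT box (CCAAT, in 37.4% of 32851 promoters), the TATA box (TATAAA, 13.6%), a MEIS element (TGACAG, 19.2%), a joint HOX and PBX element (TGATTNAT, 3.22%) and a CDX and HOX element (TTTATNG, 10.9%). The Hoxa6 promoter held a CCAAT box at position -101 from its start. The downstream Hoxa10 promoter held one at position -64 and a TATA box at position -160. These 3 matches lie on the strand opposite to the one printed. The joint HOX and PBX element was found in the Hoxa2 promoter alone, at position -111, and MEIS elements were found in those of Hoxa2 and Hoxa3. An interferon response element core, GAAA spaced by any pair of bases from another GAAA, was in 3.44% of promoters and in none of the Hoxa promoters. A form of it shorter by its last base was searched after these results were seen. It was in 8.56% of promoters, and its 1 match among the Hoxa promoters lay at position -144 from the Hoxa9 start. The promoters differed in CpG dinucleotides, with 29 in Hoxa5, 26 in Hoxa6 and 4 in Hoxa9, against a median of 7.0 over all promoters.

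Hoxa9 was the leading Hoxa transcript in every library. It was at 161.83, 170.93 and 169.44 in WT c-kit- and at 200.32, 173.15 and 193.62 TPM in WT c-kit+. Values in the libraries labelled IRF7-/- were 240.4, 217.89 and 278.87 TPM. The 3 groups did not overlap, although the lowest WT c-kit+ library lay close to the highest WT c-kit- library. In sorted bulk samples, a difference in the number of expressing cells and one in RNA per cell cannot be told apart. Among all genes, Hoxa9 ranked between 471 and 888. Hoxa10, a neighbour of Hoxa9 that acts in progenitor expansion, was at 32.22, 34.01 and 32.85 TPM, then 42.3, 41.3 and 44.51, then 63.17, 54.05 and 69.41 in the same order of groups. These too did not overlap, and the gaps exceeded the range within either wild-type group. Hoxa7, often active with Hoxa9 in MLL-rearranged leukemia, was at 55.78, 64.06 and 49.69 TPM in WT c-kit- and at 45.13, 44.88 and 51.39 TPM in WT c-kit+. Under the IRF7-/- label it was at 59.71, 56.97 and 66.87 TPM. Its lowest group was WT c-kit+, whose highest library lay within the range of WT c-kit-.

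**Figure D1:**
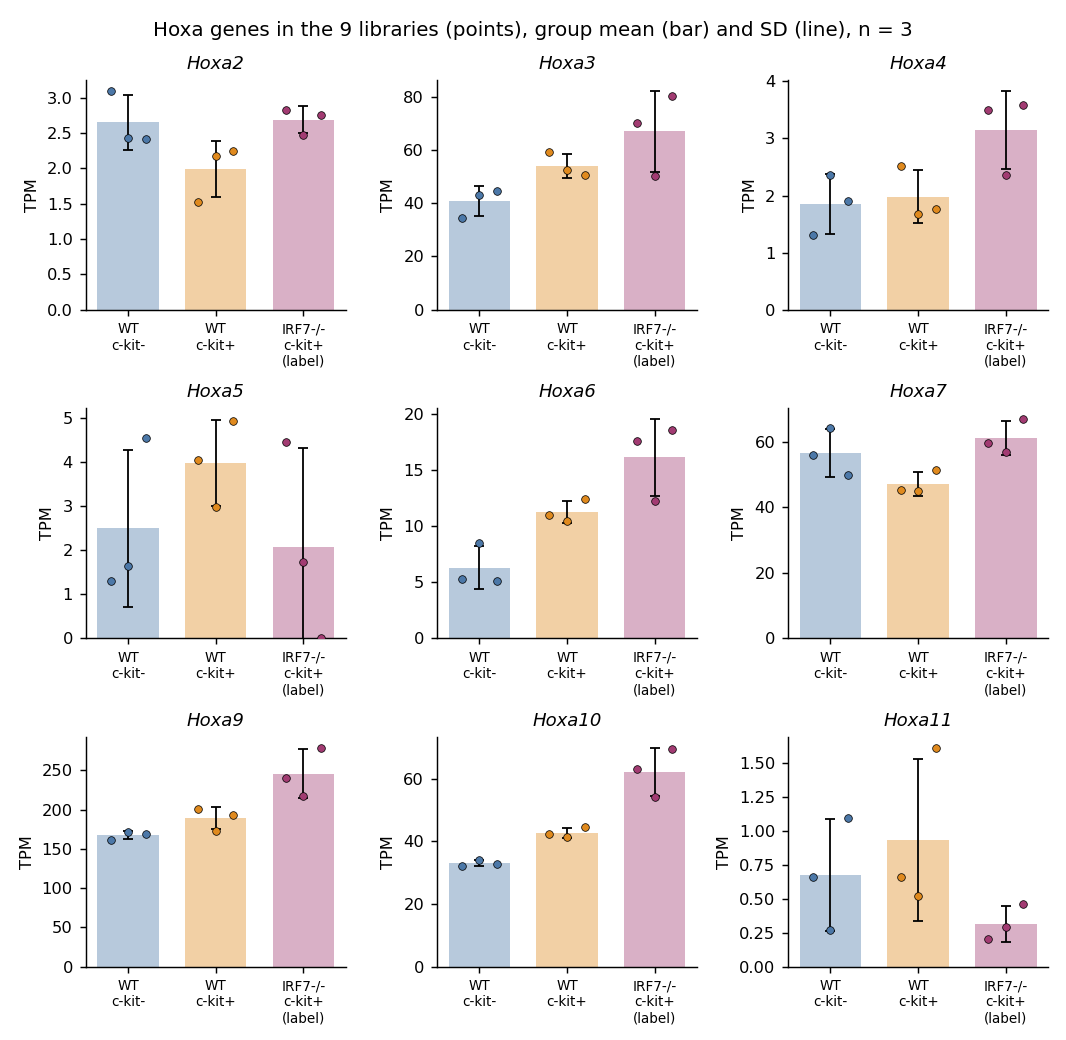
TPM of each Hoxa gene (vertical axis, linear from 0, own scale per panel) in 3 WT c-kit-, 3 WT c-kit+ and 3 libraries labelled IRF7-/-; points are libraries, bars means and lines SD. Hoxa9 and Hoxa10 step upward over the 3 groups with no overlap, Hoxa7 is lowest in WT c-kit+, and Hoxa5 spans 0 to 4.45 within one group.

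Hoxa3 and Hoxa6 belong to the anterior and middle parts of the cluster. Hoxa3 was at 34.26, 43.18 and 44.74 TPM in WT c-kit- and at 59.23, 52.4 and 50.58 TPM in WT c-kit+. Levels under the IRF7-/- label were 70.04, 50.25 and 80.39 TPM. Both c-kit+ groups lay above WT c-kit- and overlapped each other. Hoxa6 was at 5.28, 8.49 and 5.15 TPM, then 10.97, 10.47 and 12.41, then 17.64, 12.25 and 18.57 in the same order. Replicate 2 of the last group lay inside the WT c-kit+ range, and the other libraries kept to separate ranges. The remaining 4 genes were at low levels. Hoxa2 ranged from 1.53 to 3.1 TPM and Hoxa4 from 1.3 to 3.59 TPM over the 9 libraries. Hoxa11, an abdominal-type gene of the posterior end, ranged from 0.2 to 1.61 TPM and did not reach the 1 TPM in 3 of 6 libraries that the test required, so 8 of the 9 genes were tested in each comparison. Hoxa5, known as a gene that favours myeloid over erythroid maturation, was the least even. It was at 1.29, 1.63 and 4.54 TPM in WT c-kit- and 4.03, 2.98 and 4.93 TPM in WT c-kit+. In the libraries labelled IRF7-/- it was at 4.45 and 1.73 TPM and listed at 0 in replicate 3, and a listed 0 can be a failed estimate in such a table.

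By group mean ± SD (n = 3), the order of levels in WT c-kit- was Hoxa9 at 167.4 ± 4.88 TPM, Hoxa7 at 56.5 ± 7.21, Hoxa3 at 40.7 ± 5.65, Hoxa10 at 33.03 ± 0.908 and Hoxa6 at 6.31 ± 1.89 TPM. In WT c-kit+ it was Hoxa9 at 189.0 ± 14.2 TPM, Hoxa3 at 54.1 ± 4.56, Hoxa7 at 47.1 ± 3.69, Hoxa10 at 42.7 ± 1.64 and Hoxa6 at 11.3 ± 1.007 TPM. In the libraries labelled IRF7-/- it was Hoxa9 at 245.7 ± 30.8 TPM, Hoxa3 at 66.9 ± 15.3, Hoxa10 at 62.2 ± 7.72, Hoxa7 at 61.2 ± 5.11 and Hoxa6 at 16.2 ± 3.41 TPM. Hoxa9 stood apart from the next gene and Hoxa6 from the gene above it in all 3 groups. Hoxa3, Hoxa7 and Hoxa10 changed places between groups. The libraries of Hoxa3 and Hoxa7 overlapped in WT c-kit+, and in the libraries labelled IRF7-/- these 3 did not differ beyond their spread.

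The summed TPM of the 9 genes was 312 ± 15.8 in WT c-kit-, 353 ± 20.5 in WT c-kit+ and 460 ± 61.3 in the libraries labelled IRF7-/- (SD, n = 3). The part taken by Hoxa9 varied little. Hoxa9 gave between 52.0% and 54.7% of the sum in each of the 9 libraries, and Hoxa9, Hoxa10, Hoxa7 and Hoxa3 together gave between 93.7% and 96.1%. Within this pool, Hoxa10 went from 10.6% ± 0.261 to 12.1% ± 0.515 to 13.5% ± 0.180, and its 3 groups did not overlap. The share of Hoxa7 was 18.1% ± 1.93 in WT c-kit-, with a lowest library of 15.9%, and 13.4% ± 0.95 and 13.4% ± 0.823 in the c-kit+ groups, whose highest libraries were at 14.2% and 14.3%. The share of Hoxa6 was 2.01% ± 0.510, 3.20% ± 0.214 and 3.49% ± 0.378. A share within a library does not depend on the library's total, and no test was run on it. Exact permutation of 3 against 3 libraries cannot give a p below 0.1.

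**Figure D2:**
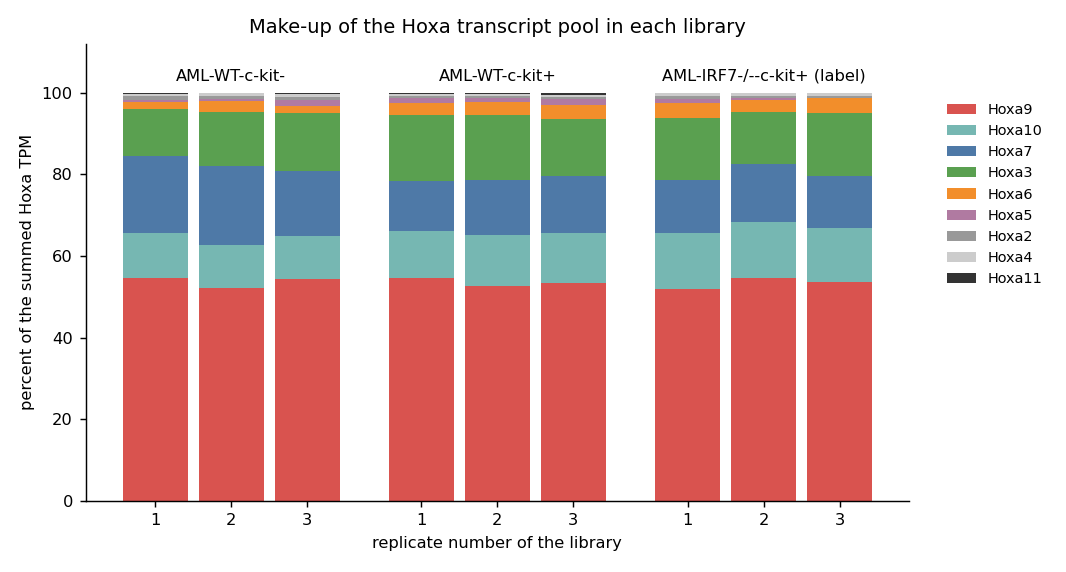
Percent of the summed TPM of the 9 Hoxa genes (vertical axis) that each gene gave in each of the 9 libraries, by group and replicate number. The Hoxa9 segment stays between 52.0% and 54.7%, the Hoxa10 segment widens from 10.6% to 13.5% on average, and the Hoxa7 segment narrows from 18.1% to 13.4% between WT c-kit- and the c-kit+ groups.

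Each pair of groups was then tested gene by gene with limma on log2(TPM + 1), with Benjamini-Hochberg adjustment over all genes tested. Fold changes on this scale understate the change of low genes. A gene was called at a change of at least 2-fold, 1 on the log2 scale, with an adjusted p under 0.05. The 3 comparisons share libraries, so they are not independent of each other. Values set beside an adjusted p below are log2 fold changes. Shares of all genes that passed are given for the main fit only. Counts of Hoxa genes that passed under another scaling, or with a library left out, have no such share to be read against.

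The comparison of WT c-kit+ with WT c-kit- asked what separates the c-kit+ and c-kit- cells of wild-type leukemia. Hoxa10, Hoxa6 and Hoxa3 were higher in c-kit+ cells, all by less than 2-fold. The log2 fold change was 0.36 (SE 0.06, adjusted p = 0.00401) for Hoxa10 and 0.78 (SE 0.19, adjusted p = 0.0165) for Hoxa6. That of Hoxa3 was 0.41 (SE 0.12, adjusted p = 0.0313). Hoxa9 differed by 0.17 (SE 0.07, adjusted p = 0.0927) and Hoxa7 by -0.25 (SE 0.11, adjusted p = 0.105), so neither passed. For Hoxa9 this depended on the setting, and it passed in 4 of 14 alternatives, among them the scalings given here. It passed at 0.27 (adjusted p = 0.0306) with a median shift, in which each library is moved by its median difference from the gene means. It also passed at 0.26 (adjusted p = 0.0432) with the 10 most abundant genes taken out and at 0.34 (adjusted p = 0.00801) with quantile normalization. Under each of these scalings 4 genes passed. Of the 8 tested genes 3 passed in the higher direction, where 14.0% of 13261 genes did, and 0 passed in the lower direction, where 27.6% did. The median over the 8 was 0.27 against -0.08 over all genes. None was called, against 14.4% of all genes, and none was at an unadjusted p under 0.05 with that fold either. In 4 of the 8 every c-kit+ library lay above every c-kit- library, as in 19.7% of all genes, and in Hoxa2 the reverse held. The number that passed fell to 1 without WT c-kit+ replicate 3, and to 1 without WT c-kit- replicate 1. Without WT c-kit- replicate 3, Hoxa5 became 1 called gene, at 1.00 (adjusted p = 0.0146).

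The comparison of the libraries labelled IRF7-/- with WT c-kit+ set leukemia of IRF7-/- origin against wild-type leukemia within the c-kit+ fraction. Cells of each origin had been infected to make their own leukemia. Loss of IRF7 therefore cannot be told apart from a difference between leukemias in any comparison with that group, and this was not tested. The paper reports a larger part of c-kit+ cells in AML-IRF7-/- than in AML-WT. The sorted c-kit+ fractions may thus not be like parts of their leukemias. Hoxa10, Hoxa9 and Hoxa7 were higher under the IRF7-/- label, each by well under 2-fold. The log2 fold changes were 0.53 (SE 0.10, adjusted p = 0.00492) for Hoxa10, 0.37 (SE 0.09, adjusted p = 0.0121) for Hoxa7 and 0.37 (SE 0.10, adjusted p = 0.0232) for Hoxa9. Hoxa6 at 0.46 (adjusted p = 0.0521), Hoxa4 at 0.47 (adjusted p = 0.0733), Hoxa2 at 0.31 (adjusted p = 0.125) and Hoxa3 at 0.28 (adjusted p = 0.211) did not pass. The 3 of 8 genes that passed stood against 31.9% of 13238 genes higher, and 0 of 8 against 16.1% lower, so the share of Hoxa genes was near that of all genes. In 4 of 8 the groups did not overlap, with the label group higher, against 39.0%. None was called, against 11.7%, nor at an unadjusted p under 0.05 with that fold. The median of all genes was itself at 0.12, and that of the Hoxa genes at 0.37. With the median shift, Hoxa10 was at 0.40 (adjusted p = 0.0167), Hoxa7 at 0.25 (adjusted p = 0.0574) and Hoxa9 at 0.25 (adjusted p = 0.101), so 1 gene passed. Without IRF7-/- replicate 2, the library with the lowest Hoxa sum of its group, 6 genes passed. Hoxa5 was at -0.999 (SE 0.57, adjusted p = 0.192), and without IRF7-/- replicate 1 it became 1 called gene at -1.57 (adjusted p = 0.0380), a value that rests on the library listed at 0.

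**Figure D3:**
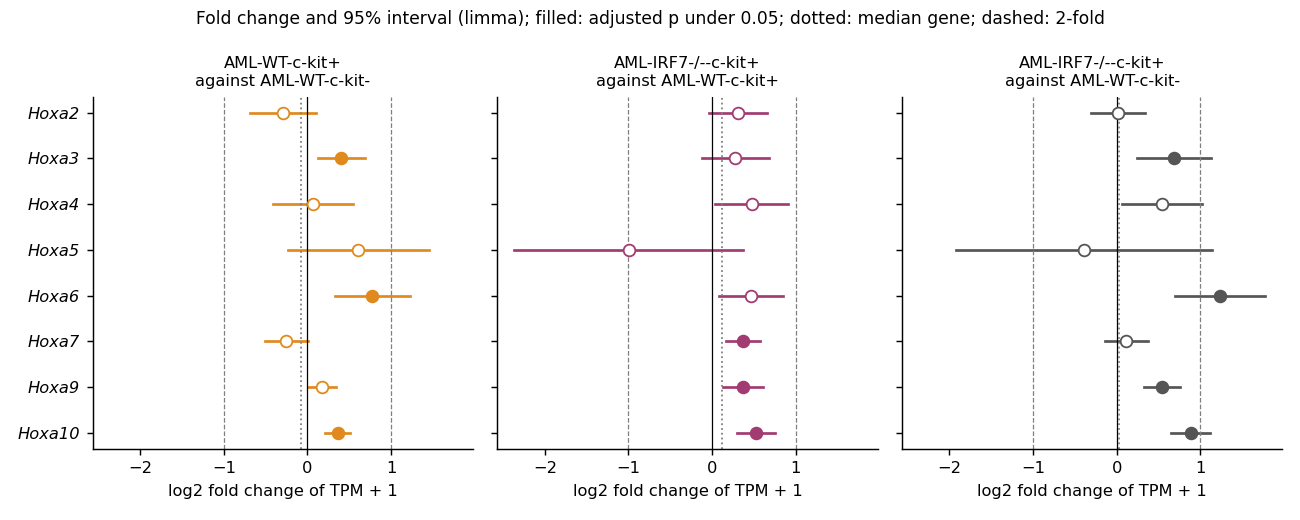
log2 fold change of TPM + 1 (horizontal axis) for the 8 tested Hoxa genes in the 3 comparisons, with the 95% interval from limma; filled points have an adjusted p under 0.05, the dotted line is the median of all genes and dashed lines mark 2-fold. Hoxa10 lies right of 0 in all 3 panels, and Hoxa6 alone passes the 2-fold line with an adjusted p under 0.05, in the comparison with WT c-kit-.

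The libraries labelled IRF7-/- and WT c-kit- differ in both label and c-kit. The log2 fold change of a gene here is the sum of its changes in the other comparisons, so its size follows from them. Those of Hoxa3, Hoxa4, Hoxa6, Hoxa9 and Hoxa10 were therefore larger than in the other comparisons. Those of Hoxa2, Hoxa5 and Hoxa7 were smaller in size than in the comparison with WT c-kit+. Hoxa6 was called, at a log2 fold change of 1.24 (SE 0.22, adjusted p = 0.00316), and was 1 called gene of 8 against 20.3% of 13510 genes. Hoxa10 at 0.89 (SE 0.10, adjusted p = 0.000332), Hoxa3 at 0.69 (SE 0.19, adjusted p = 0.0170) and Hoxa9 at 0.54 (SE 0.09, adjusted p = 0.00229) were higher below the 2-fold mark. Thus 4 of 8 passed higher against 30.7% of all genes, and 0 of 8 lower against 28.7%. The groups did not overlap in these same 4, against 34.7%. Hoxa7 at 0.12 (adjusted p = 0.382) and Hoxa2 at 0.02 (adjusted p = 0.916) were near the median of all genes, 0.03, and the median of the Hoxa genes was 0.54. Hoxa4 was at 0.54 (adjusted p = 0.0536) and Hoxa5 at -0.39 (adjusted p = 0.628).

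The interval from Skap2 to Evx1 held 41 annotated genes, of which 17 reached 1 TPM in a library, 5 stayed between 0 and 1 TPM and 19 were listed at 0 in all 9 libraries. Levels were low at the posterior edge of the cluster. Hoxa13, the Hox gene nearest Evx1, was at no more than 0.05 TPM and Hottip, a long noncoding RNA of that end, was listed at 0. Toward the anterior end, Hotairm1, a noncoding RNA on the other strand that is induced in myeloid maturation, was at 6.99, 9.55 and 8.86 TPM in WT c-kit-, then 3.17, 2.17 and 2.6 in WT c-kit+, then 5.59, 3.24 and 7.57 under the IRF7-/- label. Every WT c-kit+ library lay below the other groups. It was called lower in WT c-kit+ than in WT c-kit- at -1.38 (SE 0.16, adjusted p = 0.000807), opposite in sign to Hoxa3, Hoxa6 and Hoxa10. Against WT c-kit+, the libraries labelled IRF7-/- were at 0.78 for Hotairm1 (SE 0.27, adjusted p = 0.0483). Gm28308, Hoxaas2, Hoxaas3, Gm15050 and 5730596B20Rik, which run along Hoxa2 and Hoxa3, passed in no comparison.

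**Figure D4:**
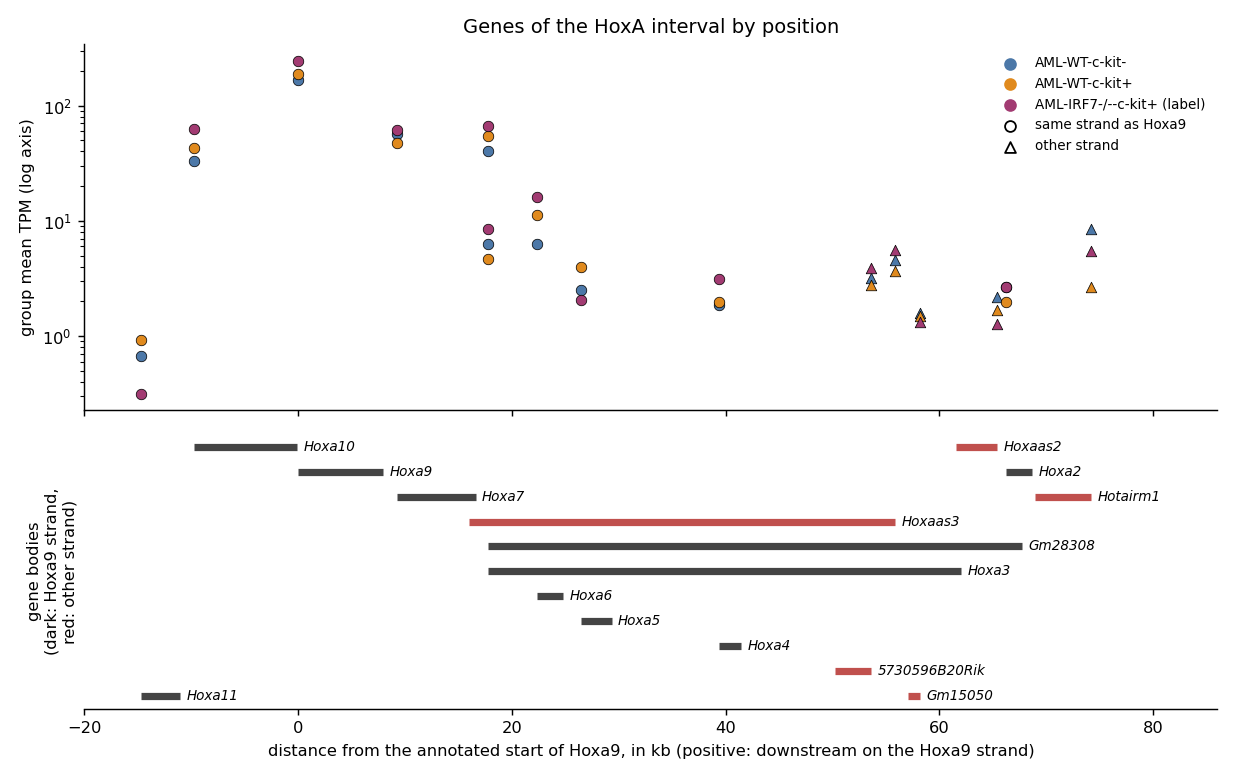
Upper axis, group mean TPM (log axis) of the genes named here from the HoxA interval that reached 1 TPM in a library at the distance in kb of each gene's start from that of Hoxa9; circles are on the Hoxa9 strand and triangles on the other. Lower axis, the span of each gene; levels peak at Hoxa9 and decline toward Hoxa11 and Hoxa2, and the span of Hoxa3 covers Hoxa4, Hoxa5 and Hoxa6.

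The annotation limits some of these values. Hoxa3 has 4 annotated transcripts and spans chr6:52169062-52213336, with Hoxa4, Hoxa5 and Hoxa6 inside it. Of its exonic bases 27.1% are shared with another gene, among them Gm28308 on the same strand (8.01%). Of the exonic bases of Hoxa7, 20.4% are shared with Hoxaas3 on the other strand, of those of Hoxa4, 16.0% with Gm29430 and of those of Hoxa11, 35.0% with Hoxa11os. Hoxa2 shares 15.0% with Gm28308 and Hoxa9 shares 1.52% with Mir196b, while Hoxa5, Hoxa6 and Hoxa10 share none. The library kit does not mark strand, so such a gene and its partner cannot be told apart where they share exons.

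Among the other HOX clusters, little was found. The 10 Hoxb genes summed to between 1.23 and 4.82 TPM per library, with Hoxb4, a gene of stem cell self-renewal, the only one tested. It did not pass in any comparison, at 0.48 (adjusted p = 0.115), 0.07 (adjusted p = 0.731) and 0.55 (adjusted p = 0.0624). The 9 Hoxc and 9 Hoxd genes summed to no more than 0.09 TPM.

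HOX proteins bind DNA together with TALE cofactors of the MEIS, PBX and PKNOX families. Meis1 was at 46.65, 35.46 and 35.39 TPM in WT c-kit- and at 38.98, 41 and 46.22 TPM in WT c-kit+. Values in the libraries labelled IRF7-/- were 61.93, 60.33 and 67.87 TPM. The last group lay above both others, which overlapped, at 0.58 (SE 0.08, adjusted p = 0.00187) against WT c-kit+ and 0.69 (SE 0.12, adjusted p = 0.00247) against WT c-kit-. Pbx3, a partner of HOXA9 in MLL-rearranged leukemia, was at 9.55, 9.1 and 5.35 TPM, then 4.38, 2.08 and 3.31, then 25.6, 45.18 and 23.63. It was called lower in WT c-kit+ than in WT c-kit- at -1.08 (adjusted p = 0.0199). It was called higher in the libraries labelled IRF7-/- at 2.91 (SE 0.29, adjusted p = 0.000548) against WT c-kit+ and 1.83 (SE 0.29, adjusted p = 0.00189) against WT c-kit-. Pbx4 was called in 1 comparison, at 1.02 (adjusted p = 0.000507) against WT c-kit-. Pbx2 was slightly lower in the libraries labelled IRF7-/-, at -0.29 (adjusted p = 0.00608) against WT c-kit+ and -0.22 (adjusted p = 0.0106) against WT c-kit-. Pknox1 was at 0.24 (adjusted p = 0.0222) and 0.15 (adjusted p = 0.403) in the same comparisons.

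**Figure D5:**
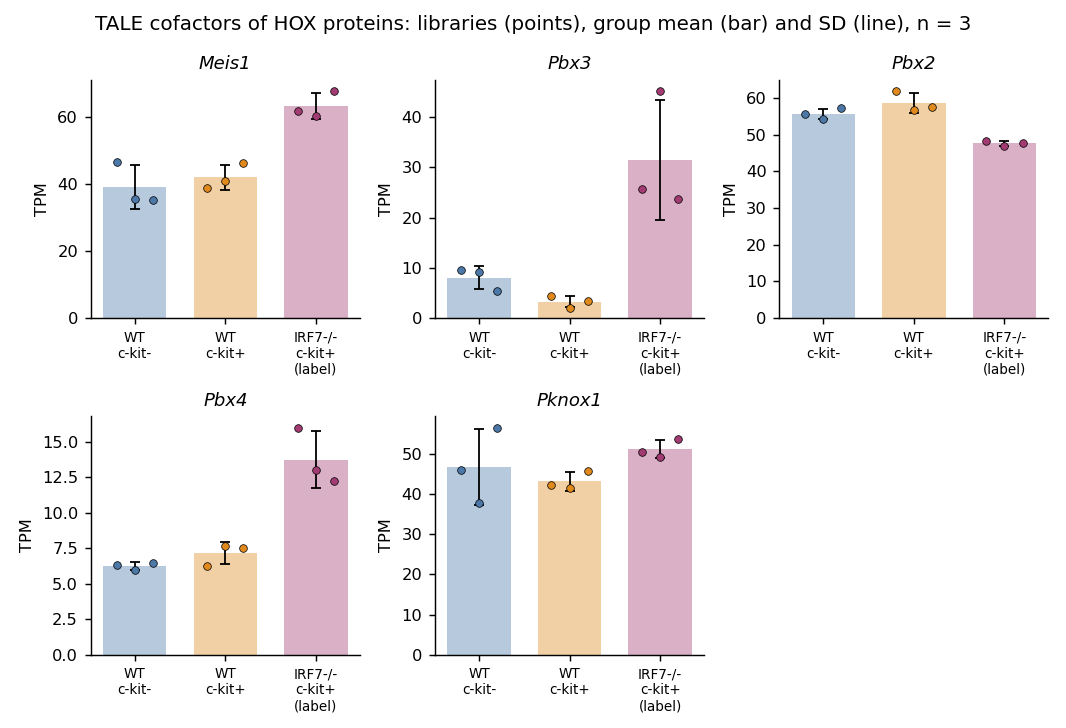
TPM (vertical axis, linear from 0, own scale per panel) of Meis1, Pbx3, Pbx2, Pbx4 and Pknox1 in the 3 groups; points are libraries, bars means and lines SD. Pbx3 has its highest 3 values, 23.63 to 45.18, in the libraries labelled IRF7-/-.

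Regulators of the cluster were read by lists. Of 17 genes that activate Hoxa chromatin 14 were tested. In WT c-kit+ against WT c-kit- 6 passed higher and 2 lower, where 14.0% and 27.6% of all genes did. In the libraries labelled IRF7-/-, 2 passed higher and 2 lower against WT c-kit+ (31.9% and 16.1% of all genes), and 7 higher and 3 lower against WT c-kit- (30.7% and 28.7%). Aff1, a subunit of the elongation complex that MLL fusions recruit, was the 1 gene called in WT c-kit+ against WT c-kit-, at 1.01 (adjusted p = 0.000202). Kmt2a, the gene of MLL, was at 31.34, 34.45 and 48.26 TPM in WT c-kit- and at 77.26, 69.88 and 62.4 TPM in WT c-kit+. Under the IRF7-/- label it was at 71.25, 76.48 and 102.05 TPM. Mllt3, the gene of AF9, was at 20.73, 32.07 and 41.94 TPM, then 62.49, 54.85 and 60.67, then 64.17, 57.8 and 68.35. For both, the c-kit+ groups lay above WT c-kit- and overlapped each other. Against WT c-kit-, the libraries labelled IRF7-/- were called higher for Kmt2a at 1.12 (adjusted p = 0.00257) and Mllt3 at 1.04 (adjusted p = 0.00813). Whether reads of the retroviral fusion, which joins parts of these same genes, entered their values was not tested. Of 19 Polycomb genes none was called in any comparison, where 14.4%, 11.7% and 20.3% of all genes were. By adjusted p alone, 4 passed higher and 6 lower of 19 tested in WT c-kit+ against WT c-kit- (14.0% and 27.6% of all genes), and 4 higher and 1 lower of 18 in the libraries labelled IRF7-/- against WT c-kit+ (31.9% and 16.1%). Against WT c-kit-, 6 passed higher and 4 lower of 19 in the libraries labelled IRF7-/- (30.7% and 28.7%).

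Genes known as targets of HOXA9 and MEIS1 moved in both directions. Of the 18 listed, 16 were tested in WT c-kit+ against WT c-kit-, with 6 higher and 6 lower (14.0% and 27.6% of all genes). Igf1r, a growth factor receptor, was called higher at 2.28 (adjusted p = 0.00209) and Myb, a progenitor transcription factor, at 1.54 (adjusted p = 2.72e-05). Flt3, a receptor kinase of progenitors, was called lower at -2.24 (adjusted p = 0.00448), and Bcl2, an inhibitor of apoptosis, at -1.04 (adjusted p = 0.00592). In the libraries labelled IRF7-/- against WT c-kit+, 3 of 17 passed higher and 7 lower (31.9% and 16.1% of all genes). Cybb, a subunit of the phagocyte oxidase, was called lower at -3.68 (adjusted p = 0.000554), Mef2c, a transcription factor, at -3.07 (adjusted p = 0.00700), Eya1 at -2.72 (adjusted p = 0.000512) and Pim1, a survival kinase, at -2.40 (adjusted p = 0.000289). Cybb is itself expressed in mature myeloid cells. Against WT c-kit-, 7 of 17 passed higher and 8 lower (30.7% and 28.7% of all genes). The median of the tested targets was -0.15, -0.12 and -0.46 in the 3 comparisons, where that of the Hoxa genes was 0.27, 0.37 and 0.54.

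Over the 9 libraries, the gene outside the cluster most like each Hoxa gene was sought among 13962 genes by the root mean square difference of centred log2(TPM + 1). Hoxa9 was nearest to Cox7a2, a subunit of cytochrome c oxidase (0.0665), and Hoxa10 to Phb, the gene of prohibitin (0.0689). Hoxa7 was nearest to Nagpa (0.0566), Hoxa2 to Amigo1 (0.0664), Hoxa3 to Rnaset2b (0.109), Hoxa4 to Cox10 (0.140) and Hoxa6 to Slc25a47 (0.152). Hoxa5 had no close counterpart, with Pcnx nearest at 0.470. Within the cluster, Hoxa9 and Hoxa10 were nearest to each other at 0.148, and 450 of the genes lay closer to Hoxa9 than Hoxa10 did. The likeness is a description over 9 libraries of 3 groups.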

How the data were processed

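Per the labels, RNA of sorted leukemia cells was extracted with TRIzol and libraries were made with the Illumina TruSeq RNA kit v2. The authors deposited 1 table of gene values in TPM for 9 libraries. Its columns sum to between 987468 and 992231, so the unit was read from the values. The aligner, quantifier and genome build are not given in the sources used here, and the paper calls the assay a microarray. All 55536 gene identifiers matched the GENCODE mouse annotation vM21 (GRCm38), which gave coordinates. TPM holds no read depth, so no counting interval is given.

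Values were tested as log2(TPM + 1) with limma 3.58.1 in R 4.3.3 (lmFit, eBayes with trend), each pair of groups on its own 6 libraries, over genes that reached 1 TPM in 3 or more of them. Benjamini-Hochberg adjustment covered all genes tested. The scripts were tested on simulated data. The Hoxa genes, the gene lists and the tests were chosen with earlier results of these data known. The text names the 9 Hoxa genes, their neighbours between Evx1 and Skap2, up to 4 called genes per list, the most alike gene outside the cluster, and Irf7 and Kit, while Meis1, Pbx2, Pknox1, Hoxb4 and the single marker genes fall outside this rule and were chosen after their values were seen. A few genes of these lists and of the interval are not reported here. Alternatives were another filter, pseudocount, scaling and fit, and each library left out. Sequences came from RefSeq (GRCm38.p6), and 3′ UTRs from GENCODE vM21, the longest per gene.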

Additional observations from a re-analysis of the deposited data

How the results depend on the processing

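The counts of called Hoxa genes were recomputed under 15 alternatives per comparison. The count of 1 in the libraries labelled IRF7-/- against WT c-kit- was the same in all 15. The counts of 0 in the other comparisons were the same in 14 of 15, and ranged from 0 to 1 when single libraries were left out, where Hoxa5 was called as described. Single libraries left out moved the mean Hoxa9 share of the Hoxa sum between 53.4% and 53.8%. Of the recomputed fold changes of single Hoxa genes, 317 kept their direction and side of the threshold for a call, 2 came to be called and 8 changed sign, all from values that did not pass. Hoxa4 in WT c-kit+ against WT c-kit- was at -0.05 without WT c-kit+ replicate 1 and -0.078 without WT c-kit- replicate 1. In the libraries labelled IRF7-/- against WT c-kit-, Hoxa2 was at -0.0074 with the median shift, -0.0098 without IRF7-/- replicate 1, -0.02 without WT c-kit- replicate 2 and -0.026 without WT c-kit- replicate 3. In that comparison, Hoxa5 was at 0.26 without IRF7-/- replicate 3 and 0.0032 without WT c-kit- replicate 3. Over all single libraries left out, these 3 values ranged from -0.078 to 0.20, from -0.026 to 0.10 and from -0.96 to 0.26. The cause was not tested. Quantile normalization moved the median change of all genes in WT c-kit+ against WT c-kit- from -0.08 to 0.07.

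By adjusted p alone, over 13 or 14 alternatives that gave a value, Hoxa10 passed in all 14 in each comparison. In WT c-kit+ against WT c-kit-, Hoxa6 passed in 12, Hoxa3 in 6, Hoxa9 in 4, and Hoxa5 and Hoxa7 in 1 each. Against WT c-kit+, the libraries labelled IRF7-/- passed in 13 for Hoxa7, 6 for Hoxa9, 3 for Hoxa6, and 1 each for Hoxa3, Hoxa4 and Hoxa5. Against WT c-kit-, they passed in 14 for Hoxa6 and Hoxa9, 12 for Hoxa3 and 4 for Hoxa4.

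Deviations of same-numbered libraries from their group means had correlations from -0.07 to 0.24. Libraries of unlike number were not compared in this way, and the labels give no source mouse. Whether the numbers pair the samples is therefore unknown. With the replicate block, 0, 0 and 1 Hoxa genes were called in the 3 comparisons, as without it, and 2, 4 and 4 passed by adjusted p in place of 3, 3 and 4.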
